A study of Homo sapiens with 6 samples.

Results

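Non-receptor protein tyrosine phosphatases of the PTPN family were followed by RNA sequencing after depletion of RNF6, a RING-type E3 ubiquitin ligase. The set comprised 10 genes chosen by symbol, PTPN1, PTPN2, PTPN3, PTPN6, PTPN9, PTPN11, PTPN12, PTPN13, PTPN14 and PTPN18, out of 56638 listed gene symbols. All 10 passed the filter on low counts, as did 14685 genes in all. The study compared 3 libraries of cells labelled HT29, a colorectal cancer line, given a nonspecific negative control siRNA with 3 libraries of the same line given an siRNA against RNF6. Both groups were otherwise wild type and went through transfection. The sources used here state neither the number of distinct siRNA duplexes nor the time from transfection to harvest. In the series' title RNF6 acts on JAK/STAT3 signals by way of SHP-1 and its ubiquitylation. PTPN6 encodes SHP-1, so the comparison asks how transcripts of SHP-1 and its relatives stood once RNF6 was depleted. Protein amount, ubiquitylation and phosphorylation were not measured.

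Tyrosine phosphatases of this family remove phosphate from tyrosines that kinases have marked, and each is directed to its substrates by the domains beside its catalytic domain. SHP-1 (PTPN6) and SHP-2 (PTPN11) each carry a pair of SH2 domains that dock on phosphotyrosine. SHP-1 is known mainly as a brake, taking phosphate from JAK kinases and from receptors, while SHP-2 is required for full activation of RAS and ERK downstream of growth factor receptors. SHP-1 is most abundant in blood cells, and epithelial cells make it from a separate upstream promoter.

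The libraries held 6808771 to 11071456 reads assigned to genes. The labels do not state that replicates were separate cultures, so p-values cover only library-to-library spread, part or all of which could be technical. RNF6, the target, was at 54.2, 45.1 and 57.6 CPM (a gene's reads relative to all gene reads of the library, scaled by TMM) in control replicates 1, 2 and 3 and at 16.4, 16.2 and 16.8 CPM in the RNF6 siRNA replicates, a 3.17-fold fall (adjusted p = 2.12e-06). Markers of the labelled cell type were present in part, and the identity of the cells as HT29 rests on the label and is in doubt. EPCAM was at 217 ± 9.88 and 226 ± 14.99 CPM (SD, n = 3) and KRT8 carried the most reads of 12 listed epithelial markers. CDX2 and CDH1, on the same list, were also present in every library, with 96 to 179 and 774 to 1252 reads. In contrast, CEACAM6 had 0 reads in every library, and CEACAM5, LGALS4 and VIL1 had at most 2, 2 and 5 reads. The summed level of the 12 markers was 4339 to 5637 CPM in control and 2438 to 2821 CPM in RNF6 siRNA libraries. Of 7 tested members 4 fell, all of them keratins, where 16.1% of all tested genes were lower at an adjusted p below 0.05. Among 15 markers of blood cells, where SHP-1 is abundant, PTPRC (CD45) had at most 3 reads in a library and CD3D had 0, and the sum, at 13.03 to 25.2 CPM in control and 22.4 to 28.6 CPM in RNF6 siRNA libraries, came mainly from CORO1A. Summed markers of fibroblasts, 49.9 to 65.2 CPM in control and 69.9 to 84.6 CPM in RNF6 siRNA libraries, came mainly from COL1A1. Those of endothelium, led by VWF, stayed at or below 3.72 CPM. The part of these marker shifts in the values below was not tested.

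PTPN6 is transcribed from alternative starts, and the deposited counts add up reads from all of them, so a shift between its promoters would not be visible in the values below. The windows around its annotated starts, 250 bases before to 50 after, are shown because they are the regulatory sequence of the gene the series is about. They lie on chromosome 12, plus strand, at chr12:6946327-6946626 and chr12:6951106-6951405, 4779 bases apart (RefSeq, GRCh38.p14, whereas the counts were made on hg19). Capitals mark GC boxes, GGGCGG on either strand.

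PTPN6 upstream start: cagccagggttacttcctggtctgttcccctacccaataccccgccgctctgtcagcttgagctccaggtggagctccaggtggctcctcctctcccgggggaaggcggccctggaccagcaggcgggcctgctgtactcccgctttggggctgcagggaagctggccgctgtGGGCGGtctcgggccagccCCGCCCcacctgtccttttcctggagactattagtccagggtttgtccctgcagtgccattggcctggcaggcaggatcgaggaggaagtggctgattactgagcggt

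PTPN6 downstream start: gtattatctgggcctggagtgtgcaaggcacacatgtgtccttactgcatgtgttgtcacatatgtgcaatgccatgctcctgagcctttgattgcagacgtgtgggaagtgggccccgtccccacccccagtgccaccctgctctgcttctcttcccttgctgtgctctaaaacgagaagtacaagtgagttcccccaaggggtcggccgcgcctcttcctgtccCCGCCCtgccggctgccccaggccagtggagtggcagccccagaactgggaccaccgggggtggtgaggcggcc

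The upstream window held 2 GC boxes and the downstream window 1. Such boxes were in 44.95% of 35116 promoter windows of the same length and in 8 of 13 windows of the set, which cover 9 of the 10 genes. The remaining gene, PTPN11, had no window in the reference and was not searched. The word bound by STAT dimers, TTCNNNGAA, which reads the same on both strands, was in 0 of the 13 windows and in 7.66% of all windows. Absence says only that these letters are not in these windows.

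The genes went both ways after RNF6 siRNA. PTPN11 and PTPN9 rose, PTPN1, PTPN3, PTPN6, PTPN13 and PTPN18 fell, and PTPN2, PTPN12 and PTPN14 did not pass the test (edgeR's quasi-likelihood test, adjusted p below 0.05 over all genes tested). That is 2 higher and 5 lower of 10, where 16.6% of all tested genes were called higher and 16.1% lower, 32.7% together. The median log2 fold change was −0.26 over the 10 genes and 0.01 over all tested genes. Control and RNF6 siRNA libraries did not overlap for 8 of 10, and for 44.2% of all tested genes. In bulk RNA, fewer cells of a type and less RNA per cell cannot be told apart. Leaving out control replicate 3 gave 1 higher and 2 lower. Leaving out RNF6 siRNA replicate 2 or 3 gave 2 higher and 3 lower.

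**Figure D1:**
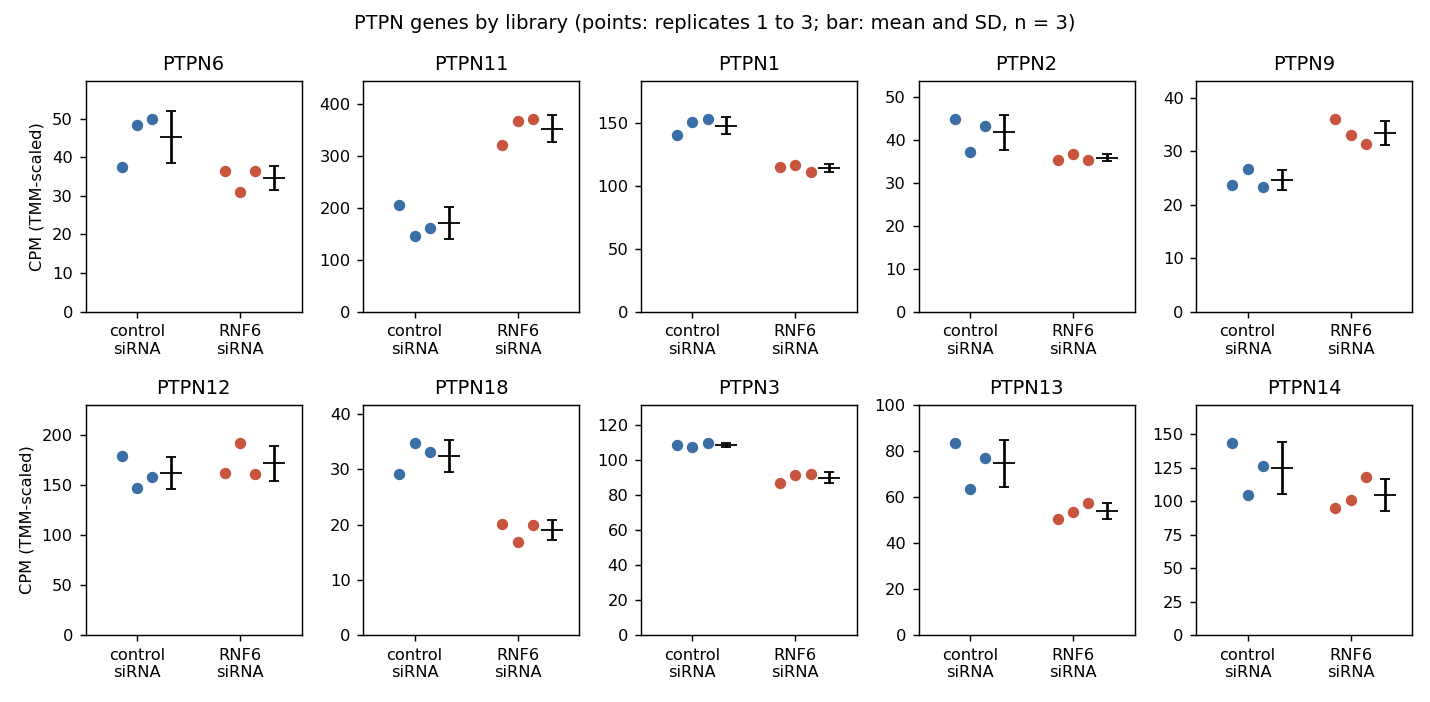
Level of each of the 10 genes in CPM, with a point for each library of control siRNA (blue) and RNF6 siRNA (red), and a bar for the mean and SD of 3 libraries. The red PTPN11 points, from 322 to 370.3 CPM, all lie above the blue ones, from 145 to 205 CPM, while the PTPN12 and PTPN14 points overlap.

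Among the SH2 phosphatases, PTPN11 rose and PTPN6 fell. PTPN11, on chromosome 12, was at 205, 145 and 161 CPM in control replicates 1, 2 and 3 and at 322, 367 and 370.3 CPM in RNF6 siRNA replicates 1, 2 and 3. Every RNF6 siRNA library was above every control library, and control replicate 1 was the highest of its group. Means were 171 ± 30.9 and 353 ± 27.0 CPM (SD, n = 3), a 2.07-fold rise (log2 fold change 1.05, SE 0.1249, 95% interval 0.78 to 1.32, adjusted p = 5.57e-05). It was called under each of 12 alternative settings, with adjusted p from 2.31e-17 to 0.00249. The reference names 5 pseudogenes of PTPN11, of which 0 matched a counted symbol. Reads that align equally well to such a copy are set aside by the counter, so its absolute level is uncertain.

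PTPN6, also on chromosome 12, was at 37.6, 48.3 and 49.8 CPM in control and at 36.4, 31.1 and 36.5 CPM in RNF6 siRNA replicates. The groups were separated by little, since control replicate 1 lay just above the highest RNF6 siRNA library, while control replicates 2 and 3 lay well above it. Means were 45.2 ± 6.66 and 34.6 ± 3.11 CPM, a 1.30-fold fall (log2 fold change −0.38, SE 0.130, interval −0.66 to −0.10, adjusted p = 0.0376). Its call was lost when control replicate 2 (adjusted p = 0.0739) or 3 (0.167), or RNF6 siRNA replicate 2 (0.131) or 3 (0.0826), was left out. Over all 12 alternatives the adjusted p ran from 0.00141 to 0.167, always with a lower level after RNF6 siRNA.

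**Figure D2:**
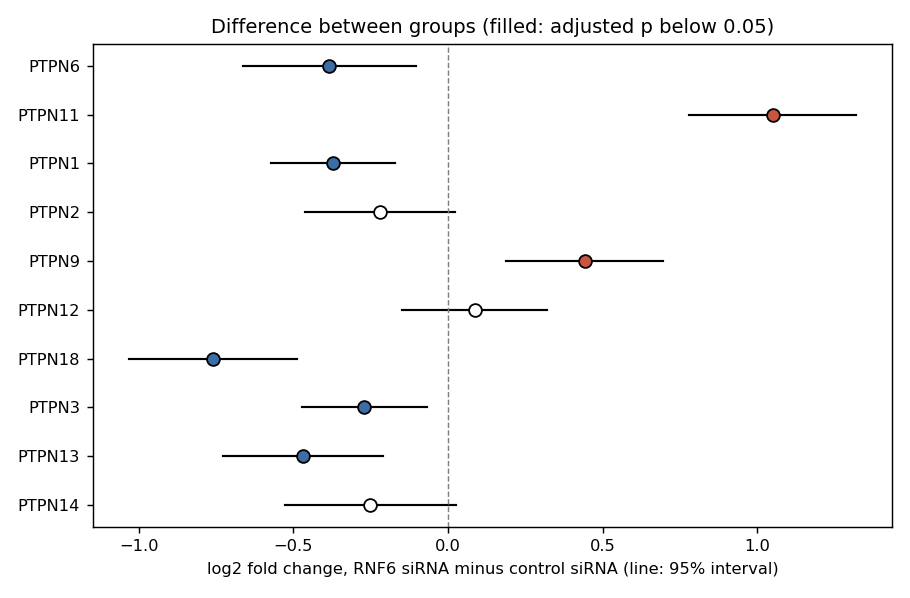
Log2 fold change of each gene, RNF6 siRNA minus control siRNA, with its 95% interval as a line; filled points have an adjusted p below 0.05. PTPN11, at 1.05, stands highest, PTPN18, at −0.76, lowest, and the intervals of PTPN2, PTPN12 and PTPN14 include 0.

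Of the other phosphatases that act on JAK kinases and STAT factors, PTPN1 fell, PTPN9 rose and PTPN2 did not pass. PTPN1 encodes PTP1B, which sits on the endoplasmic reticulum and acts on the insulin receptor, JAK2 and TYK2. It was at 140.3, 151 and 153 CPM in control and at 115, 116 and 111 CPM in RNF6 siRNA replicates, with no overlap and a narrow spread in both groups. The means, 148 ± 6.65 and 114 ± 2.85 CPM, differed 1.29-fold (log2 fold change −0.37, SE 0.0929, adjusted p = 0.00846). Without control replicate 3 its adjusted p was 0.0554, and all alternatives lay between 0.00181 and 0.0684.

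PTPN2 encodes TC-PTP, a close relative of PTP1B with a nuclear form that acts on STAT3. Its levels were 44.7, 37.2 and 43.3 CPM in control and 35.4, 36.8 and 35.3 CPM in RNF6 siRNA replicates. Every RNF6 siRNA library was below every control library, but control replicate 2 was only just above them. The difference of 1.16-fold did not pass (log2 fold change −0.22, interval −0.46 to 0.02, adjusted p = 0.150), and that interval includes both no change and a fall as large as that of PTPN6. Its processed pseudogene PTPN2P1 had 7 to 15 reads in a library and did not pass either (adjusted p = 0.359).

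PTPN9 encodes the phosphatase MEG2, which has a lipid-binding domain and is found on secretory vesicles. It was at 23.7, 26.7 and 23.4 CPM in control and at 35.9, 32.96 and 31.4 CPM in RNF6 siRNA replicates, so that all RNF6 siRNA libraries were higher. Means of 24.6 ± 1.80 and 33.4 ± 2.31 CPM gave a 1.36-fold rise (log2 fold change 0.44, SE 0.117, adjusted p = 0.0117). Without control replicate 3 the adjusted p was 0.0796, the highest over the alternatives, where the lowest was 0.00894.

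The balance between SHP-2 and the inhibitory phosphatases was described within each library, where scaling cancels. Gene length cancels from a difference in log2 ratio between groups, but not from a ratio itself or from a share of reads. The balance is a description of genes picked with earlier results known and carries no test. PTPN11 had 5.46, 3.01 and 3.24 reads for each PTPN6 read in control replicates 1, 2 and 3, and 8.84, 11.8 and 10.1 in RNF6 siRNA replicates 1, 2 and 3. The groups did not overlap, with control replicate 1 the closest to the RNF6 siRNA libraries. The mean ratio was 3.90 ± 1.35 in control and 10.3 ± 1.48 after RNF6 siRNA (SD, n = 3), a difference of 1.44 in mean log2 ratio that ran from 1.28 to 1.71 when each library was left out in turn. The rise of PTPN11, by 1.05 on the log2 scale, made up more of this difference than the fall of PTPN6, by 0.38.

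Set against the 4 phosphatases listed as JAK/STAT inhibitory, PTPN1, PTPN2, PTPN6 and PTPN9, PTPN11 took 45.4%, 35.6% and 37.5% of the reads of these 5 genes in control replicates 1, 2 and 3. In RNF6 siRNA replicates it took 59.1%, 62.8% and 63.3%. The activating role given above for SHP-2 is in RAS and ERK signalling, so this share does not measure JAK/STAT inhibition. The summed level of the 4 inhibitory genes was 259 ± 11.8 CPM in control and 218 ± 4.51 CPM after RNF6 siRNA, with PTPN9 the only one of the 4 to rise. Over all 10 genes the sum was 932 ± 64.4 and 1011 ± 44.0 CPM, a difference of 78.6 CPM between groups that overlapped.

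**Figure D3:**
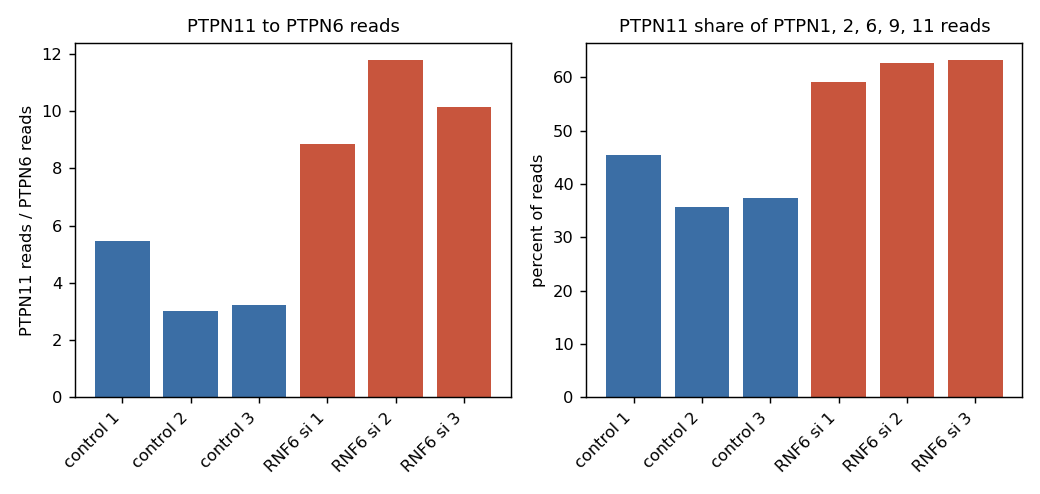
PTPN11 reads for each PTPN6 read (left) and PTPN11 reads as a percent of PTPN1, PTPN2, PTPN6, PTPN9 and PTPN11 reads (right), with a bar for each library of control siRNA (blue) and RNF6 siRNA (red). The left bars run from 3.01 to 5.46 in control and from 8.84 to 11.8 in RNF6 siRNA libraries.

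The phosphatases with PEST sequences, which act at focal adhesions and on receptor kinases, differed from each other. PTPN18, known for removing phosphate from HER2, fell the most of the 10 genes. It was at 29.1, 34.7 and 33.2 CPM in control and at 20.2, 16.9 and 19.9 CPM in RNF6 siRNA replicates, groups well apart. Its means of 32.3 ± 2.91 and 19.0 ± 1.81 CPM gave a 1.69-fold fall (log2 fold change −0.76, SE 0.126, adjusted p = 6.29e-04), called under each of the 12 alternatives with adjusted p of at most 0.0118.

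PTPN12 encodes PTP-PEST, which acts on the adhesion adaptor p130Cas. Levels were 179, 147 and 158 CPM in control and 162, 192 and 161 CPM in RNF6 siRNA replicates, and the groups overlapped. The difference was not detectable (log2 fold change 0.09, interval −0.15 to 0.32, adjusted p = 0.574), and its interval does not reach the rise of PTPN11 or the fall of PTPN18.

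The phosphatases with a FERM domain, which tethers proteins to the membrane skeleton, held 3 genes of the set, of which 2 fell and 1 did not pass. Over all tested genes 16.1% were called lower, and PTPN21, a FERM phosphatase outside the set, rose (given below). PTPN13, a large scaffold with several PDZ domains that binds the death receptor FAS, was at 83.5, 63.7 and 77.2 CPM in control and at 50.8, 53.7 and 57.7 CPM in RNF6 siRNA replicates. No RNF6 siRNA library reached the lowest control library, control replicate 2. Means of 74.8 ± 10.1 and 54.1 ± 3.46 CPM gave a 1.38-fold fall (log2 fold change −0.47, SE 0.120, adjusted p = 0.00976).

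PTPN3, with a FERM and a PDZ domain, was at 108, 108 and 109.7 CPM in control and at 86.7, 91.4 and 92.1 CPM in RNF6 siRNA replicates. The spread was small and the groups were apart, with a fall of 1.21-fold (log2 fold change −0.27, SE 0.0940, adjusted p = 0.0421). This call was close to the threshold. It was lost without control replicate 2 (adjusted p = 0.0702) or 3 (0.140), without RNF6 siRNA replicate 1 (0.135), 2 (0.0764) or 3 (0.104), in the unfiltered table (0.0983) and with upper-quartile scaling (0.0559). The alternatives spanned 0.0372 to 0.170.

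PTPN14, known for binding the Hippo effector YAP, was at 143, 104 and 126 CPM in control and at 94.96, 101 and 118 CPM in RNF6 siRNA replicates. The ranges overlapped because control replicate 2 lay below RNF6 siRNA replicate 3, and the difference did not pass (log2 fold change −0.25, interval −0.53 to 0.03, adjusted p = 0.151). Without control replicate 2 it did pass, with an adjusted p of 0.0238. Exons of other genes, among them a keratin 18 pseudogene, KRT18P12, lie over 7.3% of its exon length, more than for any other gene of the set.

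**Figure D4:**
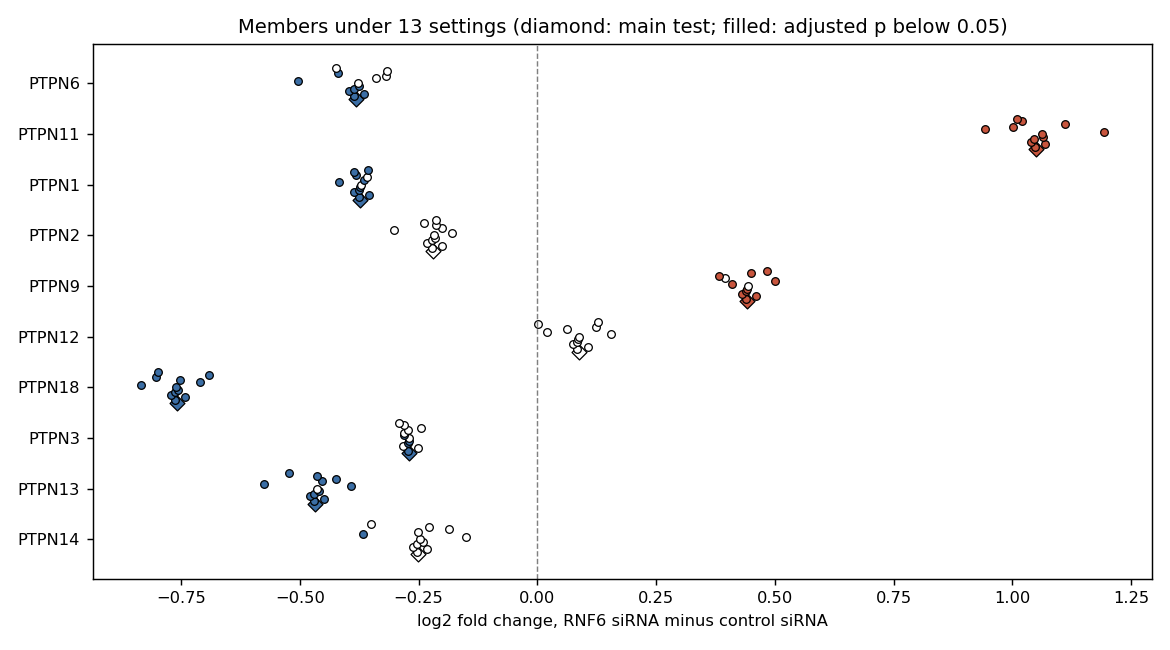
Log2 fold change of the 10 genes under 13 settings, the diamond being the reported test and circles the 12 alternatives; filled symbols have an adjusted p below 0.05. PTPN11 and PTPN18 are filled throughout, PTPN2 and PTPN12 are open throughout, and all symbols of a gene lie on the same side of 0.

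Between genes, levels were compared only per length, as CPM per kb of annotated exon (GENCODE release 29, an annotation of another build than that of the counts). In control libraries PTPN1 stood highest at 36.6 ± 1.65 CPM per kb, above PTPN12 at 29.1 ± 2.88 without overlap. PTPN11, at 24.3 ± 4.41 CPM per kb, overlapped PTPN12. A gap separated these from PTPN3, at 10.9 ± 0.100, and PTPN6, at 9.03 ± 1.33 CPM per kb, which did not overlap. PTPN6, PTPN13, PTPN14, PTPN18 and PTPN2 followed in that order, from 9.03 down to 4.79 CPM per kb, with each overlapping the next, and PTPN9 was lowest at 2.85 ± 0.209 CPM per kb.

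After RNF6 siRNA, PTPN11 stood first at 50.2 ± 3.84 CPM per kb, above PTPN12 at 30.9 ± 3.12 and PTPN1 at 28.3 ± 0.704 CPM per kb. PTPN18 moved to the lowest place, at 3.29 ± 0.314 CPM per kb, and PTPN9 and PTPN2, at 3.87 ± 0.268 and 4.11 ± 0.0955 CPM per kb, overlapped above it. PTPN6 was the fifth in both groups. When only exons of protein-coding transcripts were counted in the length, which shortens PTPN6 from 5009 to 2673 bases, PTPN6 had 16.92 and 12.96 CPM per kb and was the fourth in both groups. PTPN12 then led the control libraries and PTPN11 still led the RNF6 siRNA libraries. With that length PTPN9 was lowest in both groups, at 3.05 and 4.15 CPM per kb. PTPN18 stood above it after RNF6 siRNA, at 5.18 CPM per kb.

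**Figure D5:**
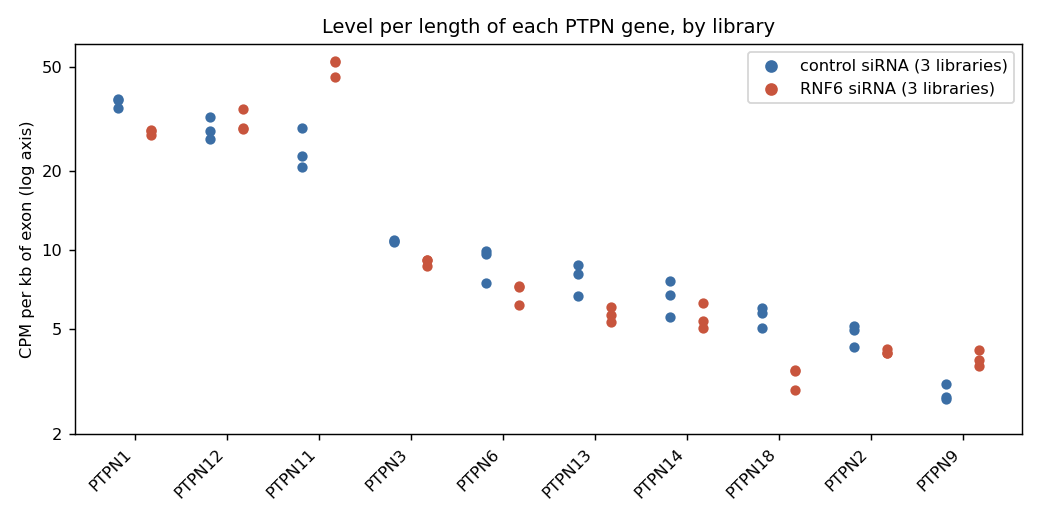
CPM per kb of exon on a log axis for each gene, ordered by the control mean, with 3 control siRNA points (blue) and 3 RNF6 siRNA points (red) per gene. PTPN1, PTPN12 and PTPN11 form an upper group in both conditions, and PTPN11 passes the other two after RNF6 siRNA.

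Few of the remaining PTPN genes were expressed. Of 9 listed symbols, 8 were in the files and 3 could be tested. PTPN21, a FERM phosphatase, rose 1.28-fold, from 16.2 ± 0.574 to 20.7 ± 1.46 CPM (adjusted p = 0.0415). That call was lost in the unfiltered table (adjusted p = 0.115), with DESeq2 (0.0958) and on leaving out control replicate 1 (0.0645), 2 (0.112) or 3 (0.110) or RNF6 siRNA replicate 2 (0.0822) or 3 (0.178). The alternatives spanned 0.0343 to 0.178. PTPN4 and PTPN23 did not pass (adjusted p = 0.161 and 0.729). PTPN7 and PTPN22, phosphatases of lymphocytes, had at most 7 and 8 reads in a library.

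The receptor-type tyrosine phosphatases, which cross the membrane, had 13 tested members of 20, with 3 higher, 1 lower and 9 not called and a median log2 fold change of 0.09. Over all tested genes 16.6% were higher and 16.1% lower, so the share called here was near the background. PTPRF (LAR), a receptor at cell junctions, rose 1.45-fold, from 294 ± 9.10 to 426 ± 40.6 CPM (adjusted p = 0.00125). PTPRU rose 1.38-fold (adjusted p = 0.00577) and PTPRB 1.54-fold (adjusted p = 0.0204). The PTPRB call was lost without control replicate 2 (adjusted p = 0.0592) or 3 (0.0726) or RNF6 siRNA replicate 3 (0.115), and its alternatives spanned 2.79e-04 to 0.115. The member that fell, PTPRM, was named after its values were seen (1.42-fold, adjusted p = 0.0215). Leaving out control replicate 1 gave 5 higher members, and leaving out RNF6 siRNA replicate 1 or 2 gave 0 lower.

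The list named here SHP-2 adaptors holds genes that act with SHP-2 at receptors, and not only adaptors, SOS1 and IL6ST being among them. Of its genes 14 were tested. EdgeR called 1 higher and 0 lower, with 3 higher and 1 lower at an unadjusted p below 0.05, against 32.7% of all tested genes called in either direction, while DESeq2 called 1 lower, and the median log2 fold change was 0.00. Leaving out control replicate 1 gave 2 higher, and leaving out control replicate 2 or 3 or RNF6 siRNA replicate 2 or 3 gave 0. GRB2, SOS1, FRS2 and GAB1 were among those that did not pass. MPZL1, a membrane protein that binds SHP-2, rose 1.21-fold, from 118 ± 3.87 to 143 ± 3.15 CPM (adjusted p = 0.0344), a call lost in the unfiltered table (0.123) and on leaving out control replicate 2 (0.0952) or 3 (0.160) or RNF6 siRNA replicate 1 (0.0698), 2 (0.0886) or 3 (0.112). Its alternatives spanned 0.0258 to 0.160. IL6ST, the gp130 chain to which SHP-2 docks, had 95.3 ± 26.8 and 69.7 ± 10.9 CPM (adjusted p = 0.0688), and it passed as lower without control replicate 2 (8.18e-04), in the unfiltered table (0.00182) and with DESeq2 (0.0430), the alternatives spanning 8.18e-04 to 0.198.

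Receptors that recruit SHP-1 through inhibitory tyrosine motifs belong mostly to blood cells, and 7 of 18 were tested. SIRPA fell 1.503-fold, from 30.1 ± 1.04 to 19.9 ± 2.82 CPM (adjusted p = 0.00387), and was the only called member, although 2 were lower without control replicate 2. Over all tested genes 16.1% were called lower and 32.7% in either direction, so 1 call among 7 is no more than the background. SIRPA was also the only one of the 18 above 5 CPM. PECAM1 and LILRB1 had 0 reads in every library.

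Among 22 tested kinases and STAT factors that these phosphatases act on, 3 were higher, 6 lower and 13 not called, beside 16.6% higher and 16.1% lower over all tested genes. STAT3 rose 1.70-fold, from 125 ± 3.88 to 212 ± 7.10 CPM (adjusted p = 5.40e-05), and JAK1, at 201 ± 21.3 and 212 ± 16.3 CPM, did not pass (adjusted p = 0.633). JAK2 fell 1.38-fold (adjusted p = 0.0463), a call kept under 3 of 12 alternatives, with adjusted p from 0.00587 to 0.133; it was lost on leaving out control replicate 1 (0.1246) or 3 (0.0949) or RNF6 siRNA replicate 1 (0.118), 2 (0.0718) or 3 (0.113). EGFR, a substrate of PTPN1 and the receptor that SHP-2 serves, fell 2.09-fold, from 215 ± 35.0 to 103 ± 14.2 CPM (adjusted p = 8.94e-05), and STAT2 fell 1.43-fold (adjusted p = 0.00163). Leaving out control replicate 1 gave 5 higher members.

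Of 15 tested partners of the PEST and FERM phosphatases, 3 were higher, 5 lower and 7 not called, beside the same background of 16.6% and 16.1%. BCAR1, which encodes the PTPN12 substrate p130Cas, fell 1.81-fold, from 68.7 ± 11.7 to 37.8 ± 3.96 CPM (adjusted p = 4.80e-04), while PTPN12 itself did not pass. The kinase gene CSK, whose product restrains SRC-family kinases together with PEST phosphatases, rose 1.76-fold, from 37.0 ± 6.12 to 65.3 ± 6.37 CPM (adjusted p = 5.33e-04). PTK2B, a focal adhesion kinase relative, fell 1.54-fold (adjusted p = 0.00256). Leaving out control replicate 3 gave 1 higher member, and leaving out RNF6 siRNA replicate 3 gave 1 higher and 3 lower.

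Across the 6 libraries, the pattern of PTPN6 was most like those of LRRC56, GPATCH3 and SLC52A3 among 11730 other genes at a mean of 5 CPM or more (Pearson r of log2 CPM 0.9996, 0.9992 and 0.9989). All 3 had control replicate 1 low among the controls, as PTPN6 did. PTPN11 was most like KIAA1147, PRICKLE4 and CENPF (r = 0.9989, 0.9989 and 0.9987), each high in the RNF6 siRNA libraries and highest among the controls in replicate 1. These r values describe 6 points that share the group difference and the libraries.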

How the data were processed

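The authors deposited a table of read counts per gene symbol for each of the 6 libraries, not normalised. Per the submitters' processing notes, TopHat2 2.0.11 and HTSeq were used with build hg19 (GRCh37). The sources used here give no annotation release and no strand setting, so antisense reads cannot be told apart. Rows that name no gene, 27.3% to 29.4% of listed reads, were left out. Amino acid sequences were not used here.

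Counts were fitted in R 4.3.3 with edgeR 4.0.16 on the whole table (filterByExpr, minimum count 10, TMM, robust glmQLFit and glmQLFTest, group as the only term, two-sided), with Benjamini-Hochberg adjustment over 14685 genes and a threshold of 0.05. SE is the log2 fold change over the root of F. The code was tested on simulated data. Each of the 10 genes had 115 to 4141 reads in a library. The alternatives were RLE and upper-quartile scaling, no filter, DESeq2 1.42.0, limma-voom (3.58.1), a replicate block and leaving out each library.

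The 10 genes, the gene lists and the naming rule were chosen with earlier results of these data known. Named are the 10 genes, RNF6, JAK1, JAK2, STAT3, IL6ST, up to 3 called genes of each list by adjusted p at a mean of 5 CPM or more, the most abundant marker of each list, and the 3 genes most like PTPN6 and PTPN11. Other genes named for a read count or as not passing were chosen after their values were seen.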

Additional observations from a re-analysis of the deposited data

How the results depend on the processing

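Over the 10 genes and 12 alternatives, 101 of 120 values kept their direction and side of the threshold, 18 lost a call, 1 gained one and 0 changed sign. RLE scaling, DESeq2 and limma-voom left 2 genes of the set higher and 5 lower. Leaving out each library in turn gave 1 to 2 higher and 2 to 5 lower, 3007 to 5877 genes called in all, 1514 to 2910 higher and 1478 to 2967 lower, and a PTPN6 log2 fold change of −0.50 to −0.32. Same-numbered libraries did not deviate together (r = −0.46, −0.25 and 0.05 over 14685 genes, with 0 of 3 control libraries closest to its own number). With 3 libraries in a group this cannot show whether libraries were paired. The labels state no pairing, and the main test took the numbers as names only. With the replicate block 1 gene of the set was higher and 1 lower, PTPN6 had a log2 fold change of −0.38 (adjusted p = 0.126), and 2742 genes were called, 1421 higher and 1321 lower. The block ended the calls of PTPN1, PTPN3, PTPN6, PTPN9 and PTPN13. For PTPN13 it was the only alternative that did so (adjusted p = 0.0546). Outside the set it ended the calls of PTPN21 (adjusted p = 0.128), MPZL1 (0.153), PTPRB (0.0505) and JAK2 (0.133), and it left 0 receptor-type phosphatases lower, 0 SHP-2 adaptors higher, 3 kinases and STAT factors lower, and 1 partner of the PEST and FERM phosphatases higher and 3 lower. The thinnest count behind a value of the set was 115 reads, for PTPN18 in RNF6 siRNA replicate 2.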
